A study of Arabidopsis thaliana with 24 samples.

Results

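The comparison described here is the genotype by phosphate difference at 1 week in Arabidopsis thaliana seedlings: the change from medium with phosphate (+P) to medium without it (-P) in the pnp1-1 mutant, minus the same change in wild type (WT). It uses the 12 of 24 arrays that were taken at 1 week, with 3 replicates in each of 4 groups. WT is Columbia-0, and pnp1-1 (SALK_013306) is a single T-DNA insertion line in that background, labelled a null line, so no second allele or rescued line stands beside it. Before transfer, seedlings of all 4 groups spent 2 weeks on complete medium (0.5% sucrose, 22 °C, 16 h of light a day). Seedlings then spent 1 week on fresh +P medium or on -P medium, in which KH2PO4 was left out and potassium was made up with K2SO4. RNA came from 3-week-old seedlings without roots, at least 4 per replicate, and was amplified and biotin-labelled before hybridisation to single-colour expression arrays. The arrays carried 22746 probe sets apart from controls.

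PNP1 encodes the polynucleotide phosphorylase of the chloroplast, an exoribonuclease that trims the 3′ ends of plastid transcripts and degrades RNA. Because it splits RNA with phosphate and releases nucleoside diphosphates, its reaction is tied to phosphate supply. Plants short of phosphate replace phospholipids, mobilise internal phosphate, store sugars and anthocyanins and slow shoot growth, and the difference of differences asks which transcripts took another course under that shortage when the enzyme was missing.

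Replicates correlated at 0.978 to 0.997 across probe sets, and 40.3% to 41.5% of each array's values were below 16, a range in which low values have no dependable order. WT +P replicates 2 and 3 were closer than other replicates: the SD of the log2 difference was 0.27 for them and 0.41 to 0.70 for the others. They shared 404 identical values, all under 16, while WT +P replicate 2 and pnp1-1 +P replicate 3, from different groups, shared 1308, of which 99.8% were under 16. Both arrays were kept, as the labels list them separately. RCA, the Rubisco activase of leaf mesophyll, had group means of 23310 to 30570, and both named root hair expansins, EXPA7 and EXPA18, were at background in all 4 groups. No probe set is named for PNP1 in the annotation used here, so its own transcript was not analysed here.

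Few transcripts passed the test for a difference in response. Of 22746 probe sets, 18 (0.0791%) had a genotype by phosphate difference at an adjusted p under 0.05 in limma with Benjamini-Hochberg adjustment, which is what "called" means here. The response was more positive in pnp1-1 for 12 (0.0528%) and more negative for 6 (0.0264%). An unadjusted p under 0.05 was found for 1185 probe sets (5.21%), against 1137.3 that the same threshold gives without any difference. The median difference over all probe sets was -0.03 on the log2 scale, with quartiles of -0.15 and 0.21, and its median standard error was 0.29. A size of at least 1 was reached by 1095 probe sets and a size of at least 2 by 142, so that most of the sizeable differences did not pass the test. In 3 of the groups, WT +P being the exception, arrays of the same replicate number had correlated deviations from their group means (r = 0.114 to 0.806). The labels state no pairing, so whether these arrays are paired is not known. With the number as a block in those 3 groups, a fit chosen after seeing the data, 37 probe sets were called, all 18 among them. With the 2 close WT +P replicates averaged, 12 were called, and RR16, AT1G68110, 262823_at, 254111_at, AT1G67330 and 266712_at lost their calls. For comparison, the same model called 781 probe sets (3.43%) in the WT response to -P, 1.86% higher and 1.57% lower on -P. In the pnp1-1 response it called 214 (0.941%), 0.818% higher and 0.123% lower. It called 1671 (7.35%) between genotypes on +P and 374 (1.64%) on -P, the latter 589 with the block. These simple differences share their arrays with the difference of differences and describe where it came from.

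**Figure D1:**
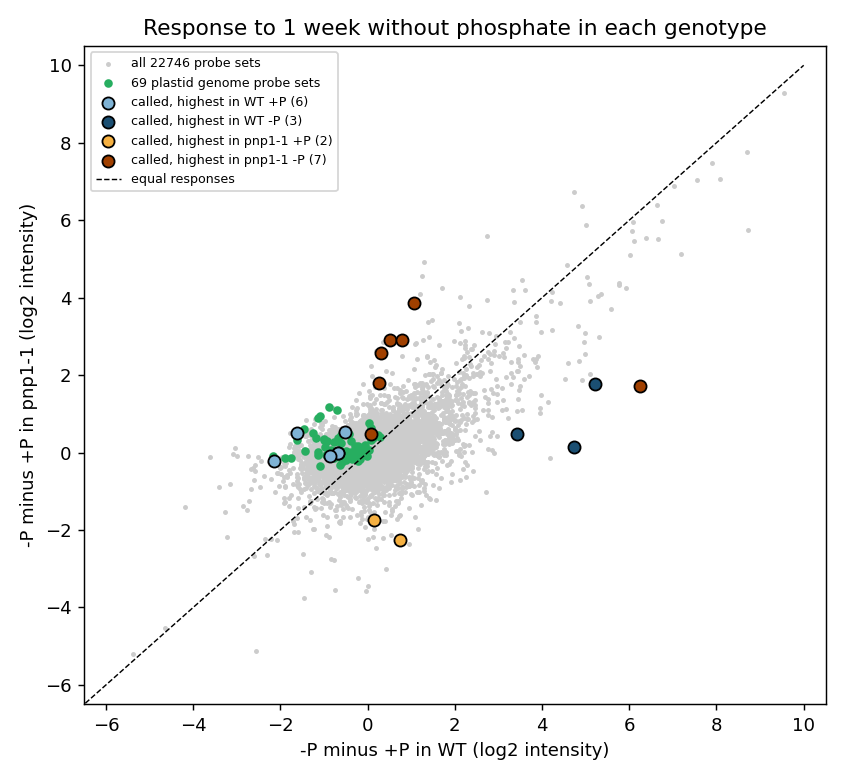
Change from +P to -P after 1 week in WT (horizontal axis) and in pnp1-1 (vertical axis), in log2 intensity, for 22746 probe sets. Grey points are all probe sets, green points are the 69 plastid genome probe sets, large points are the 18 called probe sets coloured by the group in which they were highest, and the dashed line marks equal responses. The green points lie above the line apart from psbK.

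In each of the 18 called probe sets, 1 of the 4 groups stood above the rest, with its 3 arrays all higher than the other 9, a pattern that 1794 of all probe sets (7.89%) had. The group that stood out was WT on +P for 6 called probe sets, WT on -P for 3, pnp1-1 on +P for 2 and pnp1-1 on -P for 7. Among all probe sets with this pattern, WT on +P stood out for 1110 and WT on -P for 160. For pnp1-1 the counts were 235 on +P and 289 on -P. The annotation names 11 of the 18 by a single gene, and the other 7 are given by their probe set numbers. In 12 of the 18, 3 or 4 of the group means were under 16. The differences are therefore also given with levels under 16 set to 16, called the floored difference here. It was called for 13 of the 18, and it moved 9 of them by more than 1.5-fold.

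The first set consists of transcripts that WT induced on -P and pnp1-1 did not, or did less. Probe set 245627_at read 4.28, 4.06 and 4.05 in WT on +P and 136.91, 102.37 and 94.37 in WT on -P. In pnp1-1 it read 4.26, 4.39 and 4.07 on +P and 4.56, 4.24 and 5.43 on -P. It was thus raised in 1 group alone, and its difference was -4.58 ± 0.15 (SE; adjusted p = 1.92e-12, limma), or -2.78 floored. Every fit that left out 1 array called it, and so did a fit of the 12 arrays alone (adjusted p = 2.25e-05).

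Probe set 254111_at read 3.18, 3.16 and 3.15 in WT on +P and 133.57, 110.88 and 108.19 in WT on -P. In pnp1-1 it stayed between 3.16 and 3.33 on +P and read 20.76, 3.26 and 19.55 on -P. The pnp1-1 arrays on -P were split, with replicate 2 at background. Its difference was -3.45 ± 0.60 (adjusted p = 0.0331, limma), -2.65 floored, and 4 of 12 fits lacking 1 array called it. With all 4 groups blocked by replicate number the adjusted p was 0.0511.

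Probe set 252320_at was lowest in WT on +P, at 26.85, 9.8 and 25.58, and highest in WT on -P, at 223.36, 239.95 and 157.23. In pnp1-1 it already read 87.21, 89.97 and 84.67 on +P and reached 123.08, 130.89 and 112.22 on -P. All 3 pnp1-1 arrays on +P lay above those of WT on +P, and the difference was -2.95 ± 0.52 (adjusted p = 0.0384, limma), called in 4 of 12 fits without 1 array; its floored value was -2.71.

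SWEET13, which encodes a sucrose exporter of the plasma membrane, showed the same pattern as 245627_at without passing the test. It read 80.59, 53.25 and 218.44 in WT on -P and 4.84 to 8.52 on the other 9 arrays. Its difference was -4.31 ± 0.80 (adjusted p = 0.055, limma), and -2.61 floored (adjusted p = 0.122, limma). The difference without the floor was called with the block in the 3 groups other than WT +P, chosen after seeing the data. It was not called with all 4 groups blocked (adjusted p = 0.0863, limma). The 14 named probe sets of the SWEET family, looked up after this value was seen, held no called difference, and 7 of them reached 16 in some group. SWEET2 had the highest difference of the family, 1.42, opposite in sign to that of SWEET13 (adjusted p = 0.941, limma). SWEET11, another sucrose exporter of the leaf, was at means of 3815 to 5220 with a difference of -0.22 ± 0.29.

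The second set was highest in pnp1-1 on -P. Probe set 247602_at read 92.87, 60.24 and 75.11 there, against 5.64 to 13.93 on the other 9 arrays. Its difference was 2.38 ± 0.25 (adjusted p = 0.000167, limma). AT1G26410 read 99.1, 78.1 and 116.31 in pnp1-1 on -P and 10.34, 16.38 and 12.83 in pnp1-1 on +P. In WT it read 7.79, 11.35 and 9.79 on +P and 16.16, 17.03 and 15.99 on -P. The rise in WT was 0.78 ± 0.16 (adjusted p = 0.0116) but 0.03 floored, beside 2.90 ± 0.16 in pnp1-1 (2.58 floored), and the difference was 2.12 ± 0.23 (adjusted p = 0.000183, limma). Both were called in all 12 fits that left out 1 array, which kept the 3 h arrays in the estimate of the spread. With the 12 arrays of 1 week alone neither was called (adjusted p = 0.082 each, limma). Their floored differences were 2.23 and 2.55.

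Probe set 266376_at reached 25.1, 26.67 and 40.58 in pnp1-1 on -P, against 4.77 to 8.45 elsewhere. The difference was 2.27 ± 0.24 (adjusted p = 0.000167, limma) and 0.91 floored. It was not called with the 12 arrays of 1 week alone (adjusted p = 0.0845, limma). Probe set 266712_at read 78.52, 126.57 and 166.57 in pnp1-1 on -P, 6.59, 24.27 and 8.64 in WT on -P and 5.19 to 13.19 on the +P arrays of both genotypes. Its difference was 2.80 ± 0.51 (adjusted p = 0.0466, limma), and it was called in 3 of the 12 fits without 1 array. AT5G67340 reached 11.26, 17.22 and 22.86 in the same group against 3.48 to 5.16 elsewhere, a difference of 1.54 ± 0.22 (adjusted p = 0.00678, limma) that shrank to 0.21 floored. CXE20, of the carboxylesterase family, was under 6 on every array, with a difference of 0.41 ± 0.06 (adjusted p = 0.00892, limma) and 0 floored.

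AT5G09570 belongs to the same group by its highest level but had the opposite sign. It read 8.34, 8.26 and 8.97 in WT on +P and 471.99, 876.97 and 663.64 in WT on -P. In pnp1-1 it read 289.82, 276.02 and 435.14 on +P and 1187.24, 909.61 and 1146.73 on -P. Each of the 3 other groups lay far above WT on +P, and phosphate withdrawal raised it by 6.25 ± 0.39 in WT (adjusted p = 2.46e-08) and by 1.72 ± 0.39 in pnp1-1 (adjusted p = 0.0419; 0.0539 with the replicate block). The WT rise was 5.34 floored. The difference was -4.54 ± 0.55 (adjusted p = 0.000824, limma), or -3.63 floored, and all 12 fits without 1 array called it. On the arrays of 3 h the mutant was high as well, with means of 284 on +P and 321 on -P against 19.2 and 19.3 in WT.

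Another set was raised in pnp1-1 on +P and not on -P. cwINV6, a member of the cell wall invertase family of glycoside hydrolases, read 59.32, 74.52 and 33.06 in pnp1-1 on +P and 12.59, 11.31 and 9.5 in pnp1-1 on -P. In WT it read 10.11, 5.44 and 6.09 on +P and 10.85, 13.23 and 11.17 on -P. The genotypes thus differed on +P, by 2.92 (adjusted p = 9.28e-07; 1.72 floored), while on -P their arrays overlapped. The difference of differences was -3.00 ± 0.32 (adjusted p = 0.000183, limma), -1.72 floored, and it was called in all 12 fits without 1 array. With the 12 arrays of 1 week alone it was not called (adjusted p = 0.0927, limma).

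AT1G67330 read 55.5, 82.17 and 69.37 in pnp1-1 on +P, and 16.04 to 25.93 on the other 9 arrays. Its difference was -1.87 ± 0.34 (adjusted p = 0.0402, limma; 0.0545 with all 4 groups blocked), called in 3 of 12 such fits. AT1G22440 had a like distribution, with 99.84, 170.92 and 67.96 in pnp1-1 on +P and 4.46 to 18.13 elsewhere. Its difference of -3.44 ± 0.66 did not pass the test (adjusted p = 0.0682, limma), while the floored difference of -2.65 did (adjusted p = 0.00135). The difference was called with the block in the 3 groups other than WT +P, but not with all 4 groups blocked (adjusted p = 0.079, limma).

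The last set was highest in WT on +P. RR16, a type-A response regulator of cytokinin signalling, read 53.74, 65.76 and 59.18 in WT on +P and 18.04, 17.3 and 23.16 in WT on -P. In pnp1-1 it read 17.35, 19.24 and 25.65 on +P and 28, 31.3 and 27.89 on -P. WT fell by 1.62 ± 0.24 on -P (adjusted p = 0.000743), and the value in pnp1-1 was 0.50 ± 0.24 (adjusted p = 0.906). The difference was 2.12 ± 0.34 (adjusted p = 0.0165, limma), the floored value was the same because all 12 arrays exceeded 16, and 8 of 12 fits without 1 array called it. Its call was lost with WT +P replicates 2 and 3 averaged (adjusted p = 0.0534, limma), and over all settings run its adjusted p reached 0.0957.

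ARR15, another type-A response regulator, was looked up after the value of RR16 was seen. It read 57.6, 18.16 and 19.55 in WT on +P and 5.61 to 8.37 on the other 9 arrays. Its difference of 1.85 ± 0.46 was not called (adjusted p = 0.28, limma). Of the 6 response regulators with a named probe set, RR16 and ARR15 were the ones with a group mean of at least 16, and RR16 was the one called.

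AT1G68110 read 27.57, 43.09 and 57.2 in WT on +P and 7.55 to 10.18 elsewhere, a difference of 1.91 ± 0.31 (adjusted p = 0.0197, limma; 1.35 floored). Probe set 262823_at was the brightest call, at 2204.21, 2435.92 and 2483.27 in WT on +P and 1419.04 to 1784.83 on the other arrays. Its difference was small, 0.66 ± 0.11 (adjusted p = 0.0206, limma; 0.0511 with all 4 groups blocked), and was called in 6 of 12 fits without 1 array. The other 3 calls of this kind were near background: AT1G12010, AT3G47010 and AT1G79220 had differences of 0.67, 1.05 and 0.76 that came to 0, 0.08 and 0.04 floored, and AT1G79220 had an adjusted p of 0.0511 with all 4 groups blocked. AT3G62930 had the pattern of AT1G68110 at 29.85, 72.94 and 80.64 in WT on +P against 7.4 to 11.4 elsewhere, but its difference of 2.22 ± 0.44 was not called (adjusted p = 0.0913).

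**Figure D2:**
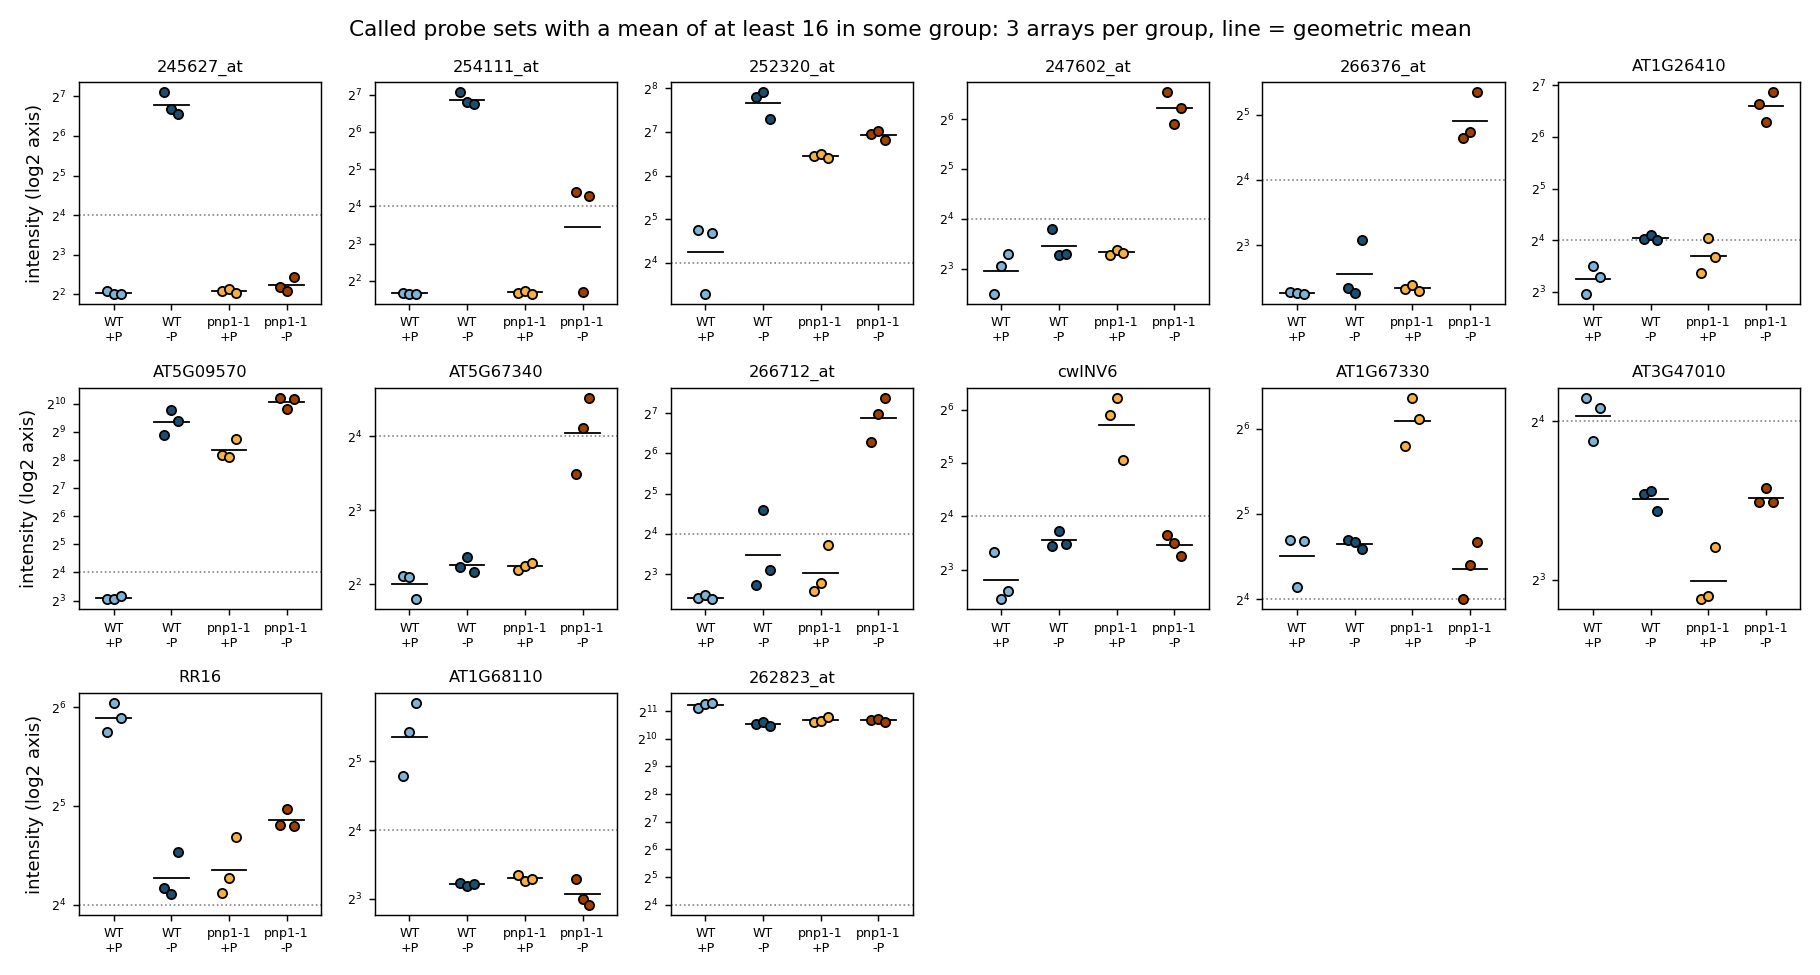
Intensity on each of the 12 arrays (log2 axis; points, 3 arrays per group; lines, geometric means) for the 15 called probe sets with a group mean of at least 16. The dotted line marks 16, and in every panel the 3 points of 1 group lie above the other 9.

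A few further probe sets were among the 25 with the lowest p-values and did not pass. Probe set 261927_at read 129.86, 58.05 and 55.99 in pnp1-1 on -P and 309.6 to 1268.9 on the other 9 arrays (difference -2.81 ± 0.54, adjusted p = 0.0721, limma). It was called with the block in the 3 groups other than WT +P, but not with all 4 groups blocked (adjusted p = 0.103, limma). Probe set 266772_s_at, which matches several genes, read 611.88, 889.15 and 439.69 in WT on -P and 37.85 to 120.13 elsewhere (-1.97 ± 0.39, adjusted p = 0.0766). AT1G06640 rose by 1.16 ± 0.12 in WT (adjusted p = 2.08e-05) against 0.25 ± 0.12 in pnp1-1, a difference of -0.91 ± 0.18 (adjusted p = 0.0721). The remaining one was rps14, a ribosomal protein gene of the plastid genome.

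Transcripts of the plastid genome leaned almost without exception to a more positive response in pnp1-1, though no single one passed the test as planned. PNPase acts on these transcripts, which encode core subunits of both photosystems, the cytochrome b6f complex, the ATP synthase, the NADH dehydrogenase-like (NDH) complex, an RNA polymerase and ribosomal proteins. Of 69 plastid probe sets, 68 had a difference above 0, with a median of 0.53 and a range from -0.06 for psbK to 2.09 for rpoC1. The count above 0 was 65 with levels under 16 set to 16 and 62 with WT -P replicate 2 left out. Over all probe sets 42.6% were above 0, and among the 7203 others with a mean of at least 256, nearer to the plastid level, 54.2% were, with a median of 0.03. No plastid difference was called by limma, and 18 of 69 had an unadjusted p under 0.05. psbA and rps14 were called with the block in the 3 groups other than WT +P, which was chosen after seeing the data. With all 4 groups blocked, rps14 was the only plastid call (adjusted p = 0.0443, limma). Neighbouring plastid genes can be read from shared transcripts, so these probe sets are not independent, and no test was made of the group. In whole shoots, fewer cells of a type and less RNA per cell cannot be told apart, which holds for chloroplasts too.

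The difference came mostly from the WT side. The median plastid response to -P was -0.49 in WT, with 4 probe sets called lower and 0 higher (all probe sets, 1.57% and 1.86%). In pnp1-1 it was 0.06, with 0 called (all probe sets, 0.941%). The array medians over the 69 probe sets, in log2 intensity, were 10.39, 10.06 and 10.16 in WT on +P and 9.63, 9.21 and 10.11 in WT on -P. In pnp1-1 they were 9.91, 10.20 and 10.47 on +P and 10.13, 10.46 and 10.64 on -P. WT on -P was low in replicates 1 and 2, while replicate 3 lay among the +P arrays, and replicate 3 was also the highest array in both pnp1-1 groups. The plastid median ranged from 0.39 to 0.64 over the fits that left out 1 array. At 3 h, on other arrays, the same difference had a plastid median of 0.14, with 46 of 69 above 0 and 0 called.

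**Figure D3:**
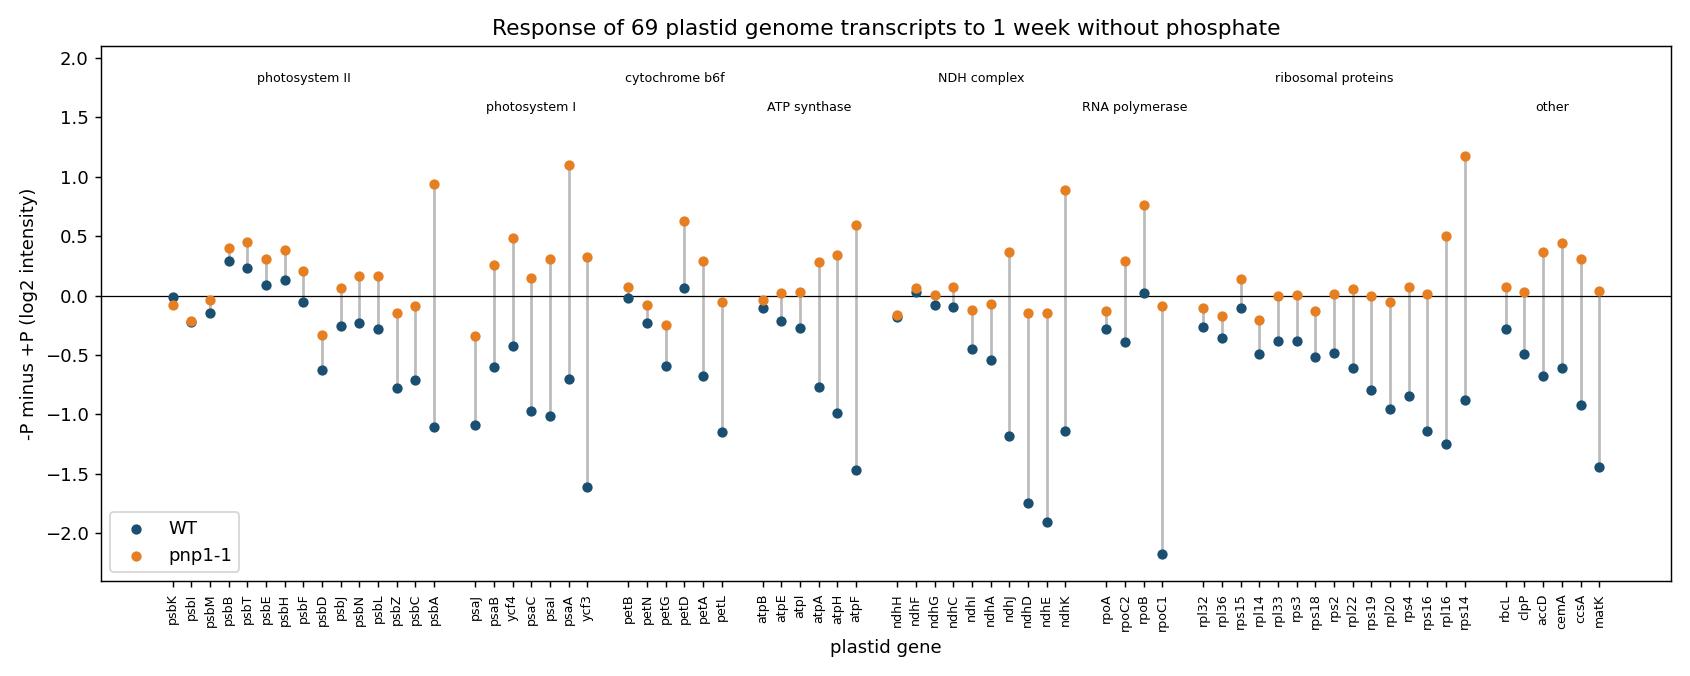
Change from +P to -P after 1 week (log2 intensity) for each of 69 plastid genes in WT (dark blue) and pnp1-1 (orange), ordered by complex and by the size of the difference, which is the length of the grey line. Orange lies above blue for 68 genes, and most blue points are below 0.

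The size varied with the complex. The median difference was 1.12 over the 7 probe sets of photosystem I and its assembly factors, 0.71 over 4 of the RNA polymerase, 0.68 over 6 of the ATP synthase and 0.49 over 15 ribosomal proteins. It was 0.45 over 6 of the cytochrome b6f complex, 0.40 over 10 of the NDH complex and 0.25 over 15 of photosystem II, and 1.05 over 6 others, among them matK and rbcL. Over the 8 NDH probe sets with a group mean of at least 16, which leaves out ndhF and ndhG, the median was 1.01, so the place of this complex rests on 2 probe sets at background. All members of these groups were above 0 except psbK of photosystem II. The differences between complexes were not tested.

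psbA, which encodes the D1 protein of photosystem II, read 3063.56, 1984.96 and 1926.79 in WT on +P and 808.46, 780.92 and 1878.56 in WT on -P. In pnp1-1 it read 3878.96, 5240.27 and 5818.39 on +P and 8794.86, 9387.19 and 10104.8 on -P. It thus fell in WT, by 1.10 ± 0.30 (adjusted p = 0.0495; 0.0651 in the fit with levels under 16 set to 16), and all pnp1-1 arrays on -P lay above those on +P, without a call (0.94 ± 0.30, adjusted p = 0.272). The difference was 2.04 ± 0.42 (adjusted p = 0.108, limma). The other plastid transcripts called lower in WT on -P were psbZ of photosystem II (-0.78, adjusted p = 0.00859), psaC of photosystem I (-0.97, adjusted p = 0.0154; -0.61 floored) and ndhI of the NDH complex (-0.45, adjusted p = 0.0328). psaC reached 16 only in WT on +P, so its fall ended in the background range. In pnp1-1 these 3 had values of -0.15, 0.15 and -0.12, with an adjusted p of 1 each.

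rps14 had the lowest p of the plastid genes for the difference, 2.05 ± 0.39 (adjusted p = 0.0682, limma). It read 7.21, 7.96 and 6.71 in WT on +P and 3.49, 4.09 and 4.37 in WT on -P, all in the background range. In pnp1-1 it read 50.54, 82.17 and 98.58 on +P and 123.82, 158.9 and 240.74 on -P. Only the mutant side could therefore be measured, and with levels under 16 set to 16 the difference was 1.18 (adjusted p = 0.445).

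ycf3, a photosystem I assembly factor, read 286.61, 170.48 and 372.93 in WT on +P, 93.11, 45.05 and 152.57 in WT on -P, 529.77, 655.07 and 639.65 in pnp1-1 on +P and 751.25, 551.76 and 1051.79 in pnp1-1 on -P. Its WT arrays on -P lay below all others, and its difference was 1.94 ± 0.71 (adjusted p = 0.758). rpoC1, a subunit of the plastid-encoded RNA polymerase, had the highest plastid value on far more uneven arrays. In WT on -P it read 72.85, 90.04 and 700.71, and replicate 3 lay among the WT +P arrays, at 664.34 to 855.86. Its difference was 2.09 ± 1.07 (adjusted p = 0.941). atpF, of the ATP synthase, had a difference of 2.06 ± 0.74 (adjusted p = 0.732).

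**Figure D4:**
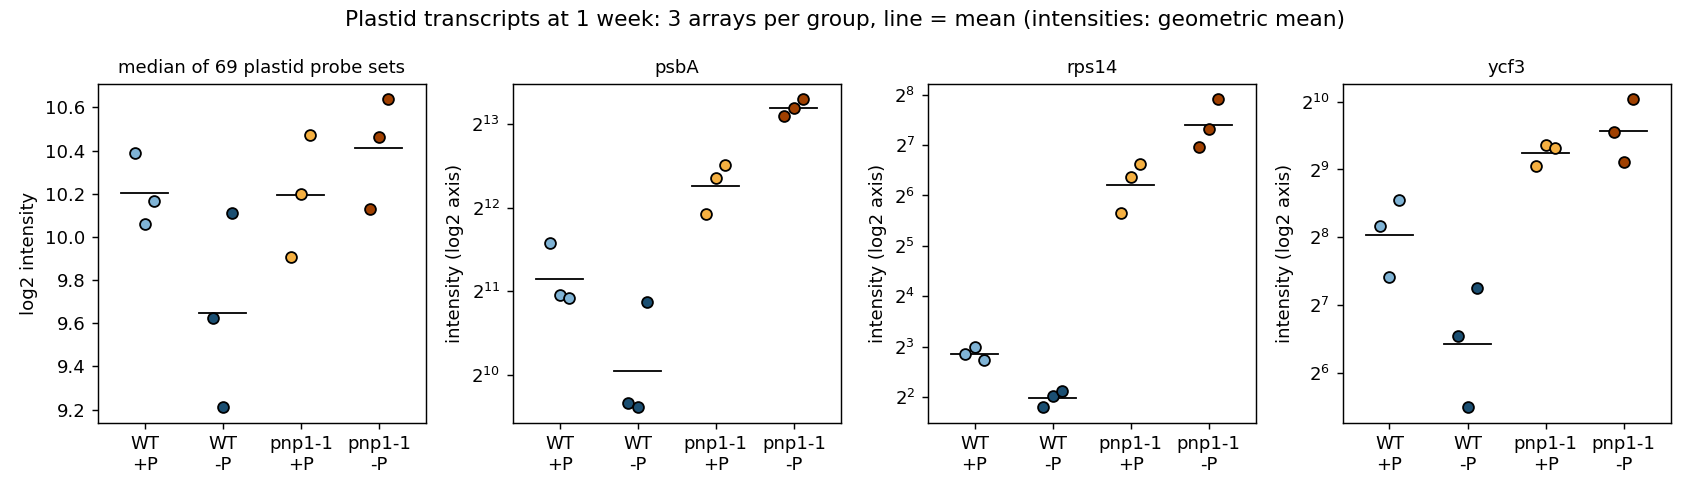
Values on each of the 12 arrays at 1 week (points; lines, means, geometric for intensities): the median log2 intensity of 69 plastid probe sets, then the intensities of psbA, rps14 and ycf3 on log2 axes. WT on -P is the lowest group in each panel and pnp1-1 on -P the highest, with WT -P replicate 3 among the +P arrays in the first panel.

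Some plastid transcripts differed widely between the genotypes with little dependence on phosphate. petD, of the cytochrome b6f complex, was at background in WT, at 4.41 to 4.85 on both media, and at 438.76 to 767.86 in pnp1-1. It was higher in pnp1-1 by 6.68 on +P and by 7.24 on -P, or by 4.83 and 5.46 floored, with a difference of 0.56 ± 0.45 (adjusted p = 0.941). rbcL, the large subunit of Rubisco, was higher by 3.92 and 4.27, with a difference of 0.35 ± 0.47. petB, of the same complex as petD and at the next plastid locus, was bright in both genotypes. Its means were 12430 on +P and 12270 on -P in WT, and 14190 and 14940 in pnp1-1. A petD signal at background does not show that the transcript was absent in WT, and what set this signal was not tested. Between the genotypes, 13 plastid probe sets were called higher and 10 lower in pnp1-1 on +P (all probe sets, 3.33% and 4.01%), with a median of -0.02. On -P 18 were called higher and 5 lower (all probe sets, 1.1% and 0.545%), with a median of 0.40.

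Nuclear pathway genes could be described only in part. Of 396 genes in 22 lists, 48 (12.1%) had a probe set named by 1 gene, so 4 lists had no measured member and 7 had at least 3. None of the measured members had a called difference. Over all probe sets 42.6% of differences were above 0, and 57.9% among those with a mean of at least 16. All 5 genes of anthocyanin and flavonoid synthesis had a difference below 0, with a median of -0.68 and a wide error: DFR, dihydroflavonol reductase, had -1.68 ± 3.01, with arrays of 1 group as far apart as 4.56 and 288.01 (pnp1-1 on +P) or 32.74 and 1020.95 (WT on -P). AT4G14090 of that list had -0.88 ± 1.43. The 4 cold and dehydration genes had a median of -0.65. COR47, a dehydrin, was the steadiest of them, at 6095.74, 6121.37 and 5497.06 in WT on -P and 3071.62, 1837.03 and 1667.03 in pnp1-1 on -P (-1.17 ± 0.50, adjusted p = 0.876). COR15A, a chloroplast cold-regulated protein, had -1.16 ± 1.27. The 6 heat shock genes had a median of -0.60, with -1.11 ± 1.56 for AT5G51440 and -0.47 ± 1.49 for AT5G48570.

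Of 6 genes for oxidative stress, 5 lay below 0 and the median was -0.44. The exception was TAPX, the thylakoid ascorbate peroxidase. It read 1603.86, 1752.07 and 1355.35 in WT on +P and 488.32 to 795.17 on the other 9 arrays, with a difference of 1.10 ± 0.30 (adjusted p = 0.407, limma). STZ, a stress-responsive zinc finger repressor, had -1.41 ± 0.65 and CCS, the copper chaperone of superoxide dismutase, -1.18 ± 0.69. The 5 chlorophyll synthesis genes had a median of 0.24, with 0.35 for CHLI2, a magnesium chelatase subunit, and 0.28 for HEMB1, which makes porphobilinogen. The 4 nuclear photosynthesis genes had a median of 0.06. Among them the antenna proteins LHCB4.3 and LHCB4.1 had 0.32 and 0.07, and RCA -0.05. The 3 glucosinolate genes had a median of -0.26, with -0.64 for BCAT4 and 0.31 for UGT74B1.

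The lists with 1 or 2 measured genes had uncalled values as well. AT1G73600, of the membrane lipid list, fell in both genotypes on -P, by 2.55 ± 0.64 in WT (adjusted p = 0.0359) and by 5.13 ± 0.64 in pnp1-1 (adjusted p = 0.000181). Its 4 group means were 342 on +P in both genotypes, 58.3 in WT on -P and 9.75 in pnp1-1 on -P, where it was in the background range (change in pnp1-1 of -4.42 floored). The difference was -2.58 ± 0.91 (adjusted p = 0.7, limma). SIZ1, a SUMO ligase known from phosphate signalling, had -1.05 ± 0.56 on a dim probe set and 0.03 ± 0.28 on a bright one. Neither value was called. AT1G63010 of the same list had -0.14. APL4 and APL3, large subunits of ADP-glucose pyrophosphorylase in starch synthesis, had -1.30 and 0.13. PDF1.2, a defensin of the jasmonate response, had -1.94 ± 1.37, and SAG101, of salicylic acid defence, -0.73. AT5G15700 of chloroplast RNA metabolism had -0.15 and GI of the circadian clock -0.07. The single measured genes for phosphatases and nitrogen assimilation were under 16 in all 4 groups, at 0.23 and -0.03.

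At 3 h the same difference of differences, measured on the other 12 arrays, was called for 0 probe sets. An unadjusted p under 0.05 was found for 684, fewer than the 1137.3 that this threshold gives without any difference. For the 18 probe sets called at 1 week, the value at 3 h reached at most 0.54 in size, and the smallest unadjusted p was 0.129. Apart from AT5G09570, RR16, AT1G67330 and 262823_at, they had means under 16 in every group at 3 h. For those dim probe sets a difference at 3 h could not be measured, so a small value does not show its absence. The values at 3 h were 0.17 ± 0.55 for AT5G09570, 0.54 ± 0.34 for RR16, 0.34 ± 0.34 for AT1G67330 and -0.08 ± 0.11 for 262823_at.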

How the data were processed

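The values used were the deposited probe set intensities, on a linear scale and already normalized by the authors. GCRMA, affy and limma are named, without versions or steps, per the submitters' processing notes; which arrays were normalized together is not given in these sources. Log2 of each intensity was taken here. The 64 control probe sets of 22810 were left out. A linear model with 1 mean for each of 8 groups was fitted to all 24 arrays (limma 3.58.1, lmFit then eBayes, under R 4.3.3; 16 residual degrees of freedom plus a prior worth 1.40), so the 3 h arrays added to the estimate of the spread. P-values were adjusted by Benjamini-Hochberg over 22746 probe sets within each comparison, and errors are standard errors from this fit. Replicates are biological ones per the series' design text, which names no shared culture day or batch. The number of arrays limits the precision.

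Genes were named from the platform annotation, with symbols updated through a RefSeq gene table (TAIR10.1): 13513 probe sets had 1 gene, 503 several and 8730 none. The genes named are all called probe sets, the next by p-value up to 25, and for each list at most 2 members of the largest difference with a group mean of at least 16, plus the plastid genome. The members and lists were chosen with earlier results of these data known. The SWEET and response regulator families, and the plastid values of psbA, psbZ, psaC, ndhI, ycf3, petB, petD and rbcL, were chosen after values were seen. TAPX, SWEET11 and the bright SIZ1 probe set were also shown outside the rule for list members. A test of promoter motifs was planned and not run.

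Replicate numbers are shared by the groups; when each array's deviation from its group mean was correlated between arrays of 1 number, 12 of 18 correlations were over 0.1 (-0.58 to 0.806), so the numbers do not pair all samples. All 9 among the groups other than WT +P were over 0.1 (0.114 to 0.806), and 3 of 9 with WT +P were, so a block in those 3 groups was added after seeing the data. Arrays of different numbers were not correlated for comparison, so these values do not establish a pairing, and no label states one. Alternatives covered the arrays fitted, low intensities, normalization, the variance model, pairing and each array left out. The fit was tested on simulated data.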

Additional observations from a re-analysis of the deposited data

Results flagged for a closer look

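For 6 of the 18 called probe sets the genotype by phosphate difference at 1 week also differed from that at 3 h, in a test of 1 week minus 3 h within the same limma fit that was chosen after the data were seen and called 6 of 22746 probe sets (0.0264%). The change was -4.63 ± 0.21 on the log2 scale for 245627_at (adjusted p = 5.66e-10), from 0.06 at 3 h. It was 2.52 ± 0.35 for 247602_at (adjusted p = 0.0138) and 2.25 ± 0.33 for 266376_at (adjusted p = 0.0168), from -0.13 and 0.03. cwINV6 changed by -3.04 ± 0.46 (adjusted p = 0.0168) and AT1G26410 by 2.16 ± 0.32 (adjusted p = 0.0168), from 0.03 and -0.04. AT5G09570 changed by -4.71 ± 0.78 (adjusted p = 0.0468), from 0.17. All of these except AT5G09570 had means under 16 in every group at 3 h, where a difference could not be measured. For them the test largely repeats the value at 1 week and does not show a change between the times. Only differences taken within each time were compared, not levels. Batch and time cannot be told apart here.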

How the results depend on the processing

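The count of 18 called probe sets depended on the settings. It was 3 with the 12 arrays of 1 week alone (245627_at, AT5G09570 and RR16) and 34 with levels under 16 set to 16. With 1 probe set per gene, 13286 tested, 11 were called. That fit left out the 7 unnamed calls beforehand and kept all 11 named ones, so its lower count was set by the annotation. The count was 28 with 16 added to each intensity and 2594 with array weights. It was 13 with arrays centred on their medians, when 46.2% of the calls were more positive against 66.7% here; this share was 50% with levels under 16 set to 16 or with dim probe sets left out, and 57.1% with 16 added. Leaving out 1 array gave 9 to 61 calls. For WT on +P the count was 48 (first replicate left out) and 11 (second left out), for pnp1-1 on +P 9 (first) and 29 (replicate 3), and for pnp1-1 on -P 61 (first) and 11 (second). Without the 3 arrays of raised lower quartile (pnp1-1 +P replicate 2, WT -P replicate 1 and pnp1-1 -P replicate 1), a setting chosen after seeing the data, it was 65, 12 of them among the 18. With the replicate block in all groups it was 17, 14 of them among the 18 (not 254111_at, 262823_at, AT1G79220 and AT1G67330). With the block in the 3 groups other than WT +P, chosen after seeing the data, it was 37, with all 18. With the close WT +P pair averaged it was 12. The cause of these shifts was not tested. Of the 18, 9 were called in every fit without 1 array and none changed sign in any setting run. The plastid median of 0.53 ranged from 0.39 to 0.67 over all settings, with at most 2 plastid calls apart from 11 with array weights. In the settings that kept all 69 plastid probe sets, 62 to 69 of them were above 0. Of the uncalled list members, 12 changed sign in some setting. Levels under 16 limit what the arrays can order.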
